A study of Mus musculus with 27 samples.

Results

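Foxa1, Foxa2 and Foxa3 are the 3 members of the FoxA family of forkhead transcription factors, and their RNA was followed here in colon of mice in which Foxa1 and Foxa2 were targeted and Foxa3 was not. The members were taken by gene symbol, with all of their annotated Ensembl transcripts: 3 of 35975 genes, with 7 transcripts among them (2 of Foxa1, 4 of Foxa2 and 1 of Foxa3). Whole-tissue pieces of proximal and distal colon were sequenced after poly(A) selection, giving 27 libraries from 14 mice of mixed background, of which 13 gave both segments. The deficient mice (7 proximal and 7 distal libraries, 9 to 13 months, 2 labelled female) carried Villin1-Cre, a recombinase driven by the promoter of an intestinal epithelial gene, with both alleles of Foxa1 and of Foxa2 flanked by loxP sites (Foxa1 lox/lox, Foxa2 lox/lox). The controls (7 proximal and 6 distal libraries, 9 to 18 months, all labelled male) did not share 1 genotype. Most were Foxa1 lox/lox, Foxa2 lox/lox mice with no Cre (5 proximal and 4 distal libraries), so these controls carried the same loxP alleles as the deficient mice. The control mouse of replicate 1 (10.5 months) carried Villin1-Cre with Foxa1 lox/wt and Foxa2 lox/wt, and that of replicate 6 (18 months) carried Villin1-Cre with Foxa1 lox/lox and Foxa2 lox/wt. The exons lying between the loxP sites are not given in the sources used here.

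FoxA proteins bind DNA through a winged-helix forkhead domain and can bind sites in compact chromatin, for which they are called pioneer factors. They act early in endoderm and later in liver, pancreas, lung and gut, where they often share target sites with homeobox and GATA factors. In the intestine, Foxa1 and Foxa2 are known for their part in goblet and enteroendocrine cells. Villin1-Cre acts in epithelial cells, so RNA of muscle, nerve, immune and stromal cells in the same piece of tissue is not targeted.

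Depth, as the sum of estimated counts, lay between 18472867 and 56744113 (median 40556273). Levels are given as CPM (a gene's estimated counts relative to the TMM-scaled library size) for comparisons between libraries, and as TPM (the deposited abundance corrected for length) for comparisons between genes or transcripts. A gene was called when its Benjamini-Hochberg adjusted p in the edgeR quasi-likelihood test was under 0.05. All 10 genes of a list of epithelial markers were detected in both segments and 0 of the 10 were called between genotypes in either segment. Of all genes tested, 11.7% were called in proximal and 6.07% in distal colon. The summed level of the epithelial markers was 14586 to 22438 CPM in proximal control and 16345 to 23336 CPM in proximal deficient libraries, and 17983 to 27638 and 13931 to 23325 CPM in the distal groups. Lists for smooth muscle, immune cells, neurons and glia, and endothelium had 0 genes called between genotypes in either segment, and the stroma list had 1 of 5 higher in proximal and 0 of 5 in distal deficient colon. In distal colon the median log2 fold change was -0.71 for the 6 smooth muscle genes, each between -0.78 and -0.63 and 3 of them with an unadjusted p under 0.05 in edgeR's test. It was -0.69 for neurons and glia, 0.48 for immune cells and 0.01 over all genes tested. Summed smooth muscle markers were at 913 to 2949 CPM in distal control and 397 to 1506 CPM in distal deficient libraries, and at 1505 to 3153 and 2008 to 3729 CPM in the proximal groups, and their part in the distal results was not tested. In whole tissue, fewer cells of a type and less RNA per cell cannot be told apart. The deficient mouse of replicate 3 was labelled male and had the Y-linked gene Ddx3y at 0.0236 and 0.556 CPM, against 29.9 to 69.3 CPM in the 21 other libraries labelled male. Nothing in the labels marks a library preparation batch.

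The gene models set what each transcript estimate can report. Foxa1 (ENSMUSG00000035451.7) lies on chromosome 12 from 57540628 to 57546916 on the minus strand of GRCm38. Its coding transcript Foxa1-201 has 3191 bases in 2 exons, and exon 2 (57540628 to 57543360) holds 1332 of its 1404 coding bases. The other transcript, Foxa1-202, is annotated as a processed transcript with no coding sequence and has 414 bases. Its exon 1 (57546781 to 57546916) has 136 bases that no other Foxa1 transcript holds, and all 278 bases of its exon 2 (57545834 to 57546111) lie within exon 1 of Foxa1-201. Foxa1-202 therefore holds no base of exon 2 of Foxa1-201.

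Foxa2 (ENSMUSG00000037025.11) lies on chromosome 2 from 148042877 to 148046969, also on the minus strand. Foxa2-201 (3 exons, 459 codons) and Foxa2-202 (2 exons, 465 codons) differ in their first exons and share a last exon (148042877 to 148044824) with 1308 coding bases. Foxa2-203 is a processed transcript of 775 bases, 190 of them in an exon of its own. Foxa2-204 has 865 bases and no base that is absent from the other transcripts. It is set apart by a splice from exon 2 into the interior of the last exon, which leaves out 525 coding bases, or 175 codons in frame. Foxa3 (ENSMUSG00000040891.6, chromosome 7, 19013284 to 19023538, minus strand) has 1 annotated transcript, Foxa3-201, with 353 codons in 2 exons.

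The last 30 bases of exon 1 of Foxa1-202 (chromosome 12, 57546781 to 57546810) are printed here because no other Foxa1 transcript holds that exon, whose reads were not counted apart. They were read 5′ to 3′ from the GENCODE M21 transcripts of GRCm38 and carry no capitals.
Foxa1-202: gtgctgtgactcacctgctcttagccgcag

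The promoter window of Foxa1, from 250 bases before to 50 bases after its RefSeq start (chr12:57546062-57546361, minus strand, GRCm38.p6), is shown because it held a forkhead-type motif. The letters TGTTTAC, which resemble the core recognised by FoxA proteins, were searched on both strands in the windows of all 3 genes, and the capitals mark the match, which is on the opposite strand.
Foxa1 promoter: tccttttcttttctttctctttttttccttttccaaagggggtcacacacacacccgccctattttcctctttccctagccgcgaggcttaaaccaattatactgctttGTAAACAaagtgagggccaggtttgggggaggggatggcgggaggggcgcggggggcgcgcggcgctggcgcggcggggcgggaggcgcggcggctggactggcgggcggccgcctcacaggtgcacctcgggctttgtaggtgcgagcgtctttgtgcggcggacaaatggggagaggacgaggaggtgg
This was the only match to TGTTTAC in the 5 windows of the 3 genes (1 for Foxa1, 3 for Foxa2 and 1 for Foxa3). Of 32851 RefSeq promoter windows of the same length, 3.65% held it. The variant TGTTTGC was found in 0 of the 5 and in 5.07% of all windows. A match of letters is a description and not a bound site.

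**Figure D1:**
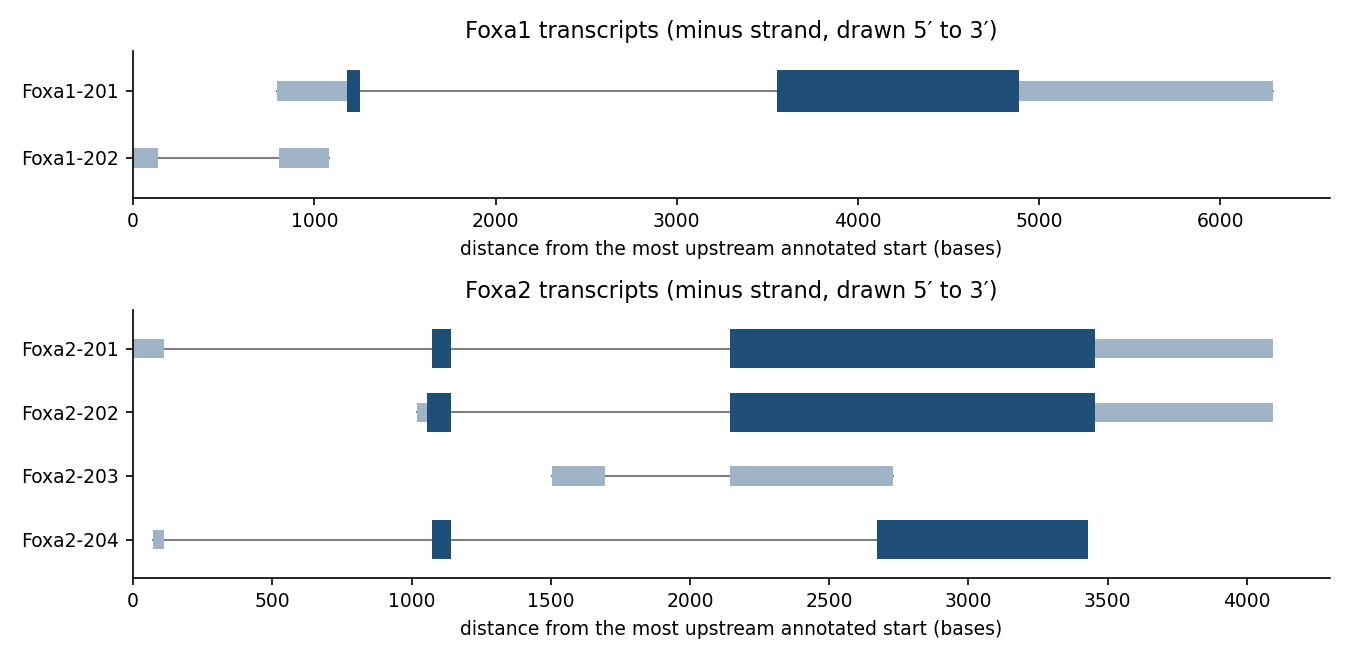
Exon structure of the annotated Foxa1 and Foxa2 transcripts, drawn 5′ to 3′ with distance in bases from the most upstream annotated start on the horizontal axis. Tall dark blocks are coding sequence, low pale blocks are non-coding exon sequence and lines are introns; Foxa1-202 ends before the second exon of Foxa1-201, and Foxa2-204 joins the last exon 525 coding bases further in than Foxa2-201 and Foxa2-202.

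The first comparison asked how far RNA of the targeted genes fell in each segment. Foxa1 and Foxa2 were called lower in deficient mice in proximal and in distal colon, and Foxa3 was called lower in proximal colon and did not pass the test in distal colon. Of all genes tested, 11.7% were called in proximal and 6.07% in distal colon, with the Cre-carrying controls counted as controls as the labels have them.

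Foxa1 in the proximal controls without Cre was at 72.5, 55.3, 70.2, 66.1 and 64.8 CPM (replicates 2, 3, 4, 5 and 7). The Cre-carrying controls stood at 75.0 CPM (replicate 1, 1 loxP allele) and 15.0 CPM (replicate 6, 2 loxP alleles). The 7 proximal deficient libraries ran from 11.0 to 15.7 CPM with a median of 12.3. Replicate 6 is therefore a control by its label that lay inside the range of the deficient libraries for Foxa1, and the other 6 controls lay above that range. Over all controls the mean fell from 59.9 ± 20.8 to 12.7 ± 1.69 CPM (SD, n = 7 each; log2 fold change -2.24, SE 0.25, adjusted p = 2.03e-05 in edgeR's test).

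In distal colon Foxa1 was at 44.1, 57.7, 45.7 and 38.6 CPM in the controls without Cre (replicates 2 to 5). Replicate 1 was at 72.4 CPM, above all of them, and replicate 6 at 6.87 CPM. The deficient libraries ran from 6.69 to 9.51 CPM with a median of 7.61. As in proximal colon, only replicate 6 among the controls overlapped the deficient range. The change over all controls was a log2 fold change of -2.48 (SE 0.36, adjusted p = 0.000716 in edgeR's test). This call was lost when an offset for the mean transcript length was fitted (-0.83, SE 0.23, adjusted p = 0.0516), and the proximal value also shrank under it (-0.91).

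Foxa2, the other targeted gene, was called lower in deficient mice in both segments. Proximal controls without Cre had 7.59, 6.57, 7.88, 7.85 and 11.3 CPM. Replicates 1 and 6, each with 1 wild-type Foxa2 allele, had 11.1 and 16.9 CPM. The deficient libraries had 1.34 to 1.92 CPM with a median of 1.49, and no control overlapped them. The log2 fold change was -2.67 (SE 0.20, adjusted p = 5.07e-07 in edgeR's test), and -1.69 with the transcript-length offset.

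Distal controls without Cre had Foxa2 at 16.9, 17.9, 14.1 and 16.8 CPM, with 27.2 CPM in replicate 1 and 21.5 CPM in replicate 6. The distal deficient libraries had 0.298 to 1.24 CPM with a median of 0.848, again with no overlap. The lowest of them, replicate 7, was also the library of lowest depth and rested on 5 estimated counts. The distal log2 fold change of Foxa2 was -4.49 (SE 0.26, adjusted p = 4.51e-07 in edgeR's test), and -3.40 with the transcript-length offset.

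Foxa3, for which the labels give no loxP allele, changed less. It was at 49.4, 40.3, 41.1, 38.3 and 41.1 CPM in proximal controls without Cre, at 38.7 CPM in replicate 1 and at 35.9 CPM in replicate 6. Deficient libraries had 21.3 to 38.1 CPM with a median of 27.4. The 2 groups overlapped at their edge, where the highest deficient library (38.1 CPM) exceeded only control replicate 6. Foxa3 fell from 40.7 ± 4.27 to 28.7 ± 6.30 CPM (SD, n = 7 each; log2 fold change -0.50, SE 0.12, adjusted p = 0.0122 in edgeR's test), which kept its call when only controls without Cre were used (-0.56, adjusted p = 0.0164). With 1 of those 5 controls left out as well, the call was lost without replicate 2, the control of highest Foxa3, and kept without each of the others (adjusted p from 0.0274 to 0.0354). In distal colon the controls ran from 37.0 to 50.8 CPM and the deficient libraries from 31.3 to 42.8 CPM, and the change did not pass (log2 fold change -0.27, SE 0.10, adjusted p = 0.157).

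**Figure D2:**
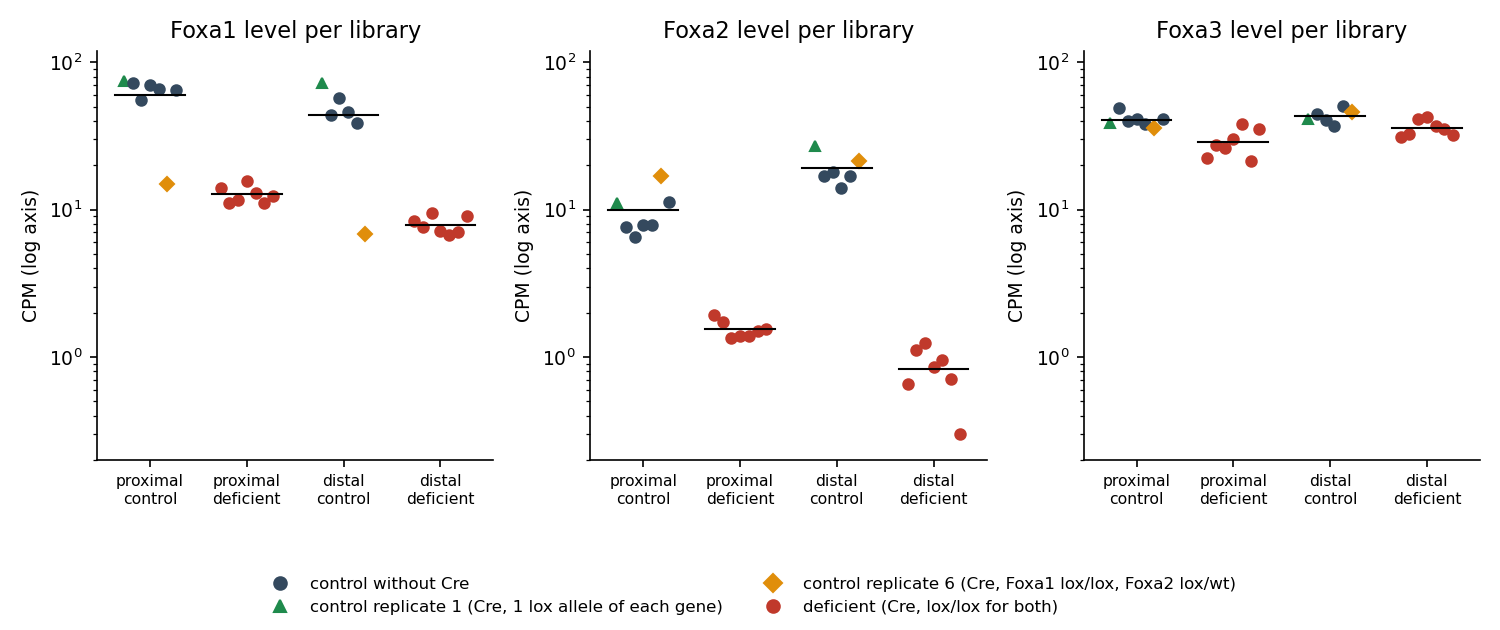
CPM of Foxa1, Foxa2 and Foxa3 in each of the 27 libraries on a log axis, by segment and genotype group; each point is 1 library, horizontal lines are group means, and the control mice that carried Cre have their own symbols. Control replicate 6 sits with the deficient libraries for Foxa1 (15.0 CPM proximal, 6.87 CPM distal) and above the controls without Cre for Foxa2 (16.9 and 21.5 CPM).

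With the controls without Cre as the only controls, 11.6% of genes were called in proximal and 5.52% in distal colon. On that footing Foxa1 was at -2.38 in proximal and -2.55 in distal colon, and Foxa2 at -2.42 and -4.28 (log2 fold changes). Whether the genotype effect differed between the segments was tested over the 13 mice that gave both, where 1.01% of genes were called. Foxa2 passed: its fall was larger in distal colon by 1.93 on the log2 scale (difference -1.93, SE 0.29, adjusted p = 0.00460 in edgeR's test). Neither Foxa1 (difference -0.14, SE 0.20, adjusted p = 0.830) nor Foxa3 (0.27, SE 0.16, adjusted p = 0.565) passed.

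The segments themselves differed widely, with 43.8% of genes called between segments of the 6 control mice and 45.1% between segments of the 7 deficient mice. Foxa2 was higher in distal than in proximal colon of control mice (log2 fold change 1.28, SE 0.15, adjusted p = 0.000175 in edgeR's test). In deficient mice its distal value was the lower one, without passing the test (-0.68, SE 0.26, adjusted p = 0.0550). Foxa1 in control mice did not pass (-0.28, SE 0.15, adjusted p = 0.152). In deficient mice Foxa1 was called lower in distal colon (-0.43, SE 0.13, adjusted p = 0.0203), a call that was lost with the transcript-length offset (-0.09, adjusted p = 0.641) and without deficient replicate 4 (-0.35, adjusted p = 0.0588).

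Foxa3 was called higher in distal colon in both genotypes, by 0.34 in control (SE 0.11, adjusted p = 0.0276) and by 0.60 in deficient mice (SE 0.12, adjusted p = 0.00319 in edgeR's test). Of the 10 epithelial markers, 8 were also called higher in distal colon of control mice and 2 in deficient mice, with medians of 0.56 and 0.24 on the log2 scale. When libraries were scaled to those markers instead of to all genes, Foxa3 in control mice turned to -0.20 (adjusted p = 0.241) and in deficient mice lost its call (0.35, adjusted p = 0.103). Under the same scaling Foxa1 was called lower in distal colon of control mice (-0.83, adjusted p = 0.00298). The Foxa3 call in control mice was also lost without Cre-carrying mice (0.26, adjusted p = 0.153) and when control replicate 1, 5 or 6 alone was left out (adjusted p = 0.0621, 0.0799 and 0.0752). The effective length was 249 bases below the transcript length in all distal libraries and 214.56 to 245.61 bases below it in the proximal ones, so the authors' quantification treated fragment length differently in the segments, and its part in these differences was not tested.

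Within a library, TPM sets the 3 genes on 1 scale. In proximal controls without Cre, Foxa1 had 21.4 to 34.6 TPM and Foxa3 24.4 to 36.5 TPM, which overlapped, and Foxa2 lay below both at 3.96 to 9.40 TPM. In distal controls without Cre the order was Foxa3 (25.0 to 32.0 TPM), Foxa1 (17.4 to 30.6 TPM) and Foxa2 (9.74 to 15.1 TPM), with Foxa3 and Foxa1 again overlapping. In deficient colon Foxa3 had 15.1 to 23.6 TPM in proximal and 20.7 to 31.1 TPM in distal libraries, against 11.3 to 20.1 and 10.8 to 16.3 TPM of Foxa1 and 1.75 to 3.27 and 0.398 to 2.23 TPM of Foxa2.

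That comparison by whole gene hides a change in which transcript the reads were assigned to. In deficient colon the coding transcript Foxa1-201 fell and the non-coding Foxa1-202 was estimated at a higher level, and among Foxa2 transcripts the estimate passed from Foxa2-202 to Foxa2-204, the form without the 175 codons. Transcripts were tested in a fit over all transcripts, of which 2.98% were called in proximal and 1.62% in distal colon. Uncertainty of read assignment between transcripts is not in that fit. Foxa2-204 has no base of its own, so its estimate depends on that assignment, and whether this form is present was not tested. The estimate of Foxa1-202 also depends on it in part, as 278 of its 414 bases are shared with Foxa1-201. Whether more RNA of the annotated Foxa1-202 form was present was likewise not tested.

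Foxa1-201 in proximal colon was at 32.6, 20.4, 28.8, 27.7 and 28.5 TPM in controls without Cre, 29.6 TPM in replicate 1 and 5.21 TPM in replicate 6. The deficient libraries had 4.14 to 5.50 TPM with a median of 4.35. It fell in proximal (log2 fold change -2.45, SE 0.30, adjusted p = 0.000233) and in distal colon (-2.73, SE 0.38, adjusted p = 0.00205 in edgeR's test). Distal levels were 18.8, 26.7, 18.6 and 14.6 TPM in controls without Cre, 27.1 TPM in replicate 1, 2.17 TPM in replicate 6 and 2.501 to 3.17 TPM in deficient libraries. In both segments replicate 6 was at or near the deficient range.

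The estimate of Foxa1-202 moved the other way. Proximal controls without Cre had 1.95, 1.07, 1.75, 3.34 and 2.69 TPM and replicate 1 had 1.01 TPM. Replicate 6 had 18.9 TPM from 106 estimated counts, above every deficient library (7.02 to 15.0 TPM, median 11.2, from 59.5 to 93.3 estimated counts). Over all proximal controls the rise did not pass (log2 fold change 1.41, SE 0.57, adjusted p = 0.308), and against controls without Cre it did (2.38, SE 0.30, adjusted p = 0.000691 in edgeR's test). In distal colon Foxa1-202 rose (1.30, SE 0.27, adjusted p = 0.0277), from 2.82 to 3.86 TPM in controls without Cre, 4.01 TPM in replicate 1 and 5.59 TPM in replicate 6 to 7.94 to 13.1 TPM in deficient libraries. That distal call was lost when no filter on low counts was used (adjusted p = 0.115).

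Foxa2-202 was the main Foxa2 transcript of control mice, at 3.59 to 9.60 TPM in proximal and 8.14 to 13.3 TPM in distal control libraries. In deficient libraries it was at 0.0867 to 0.4995 TPM (6.70 to 28.8 estimated counts) and 0.0655 to 0.227 TPM (2.21 to 13.2 estimated counts). It fell in proximal (log2 fold change -4.26, SE 0.32, adjusted p = 5.40e-06) and in distal colon (-6.13, SE 0.29, adjusted p = 1.55e-07 in edgeR's test). Foxa2-201 had 48.4 to 157 estimated counts in distal control libraries, and in distal deficient libraries it was listed at 0 in 5 of 7 and at no more than 3.09 in the others. It was too low to be tested in proximal colon, as was Foxa2-203 in both. Foxa3-201, the only Foxa3 transcript, had a proximal log2 fold change of -0.50 that did not pass in the transcript fit (adjusted p = 0.0779).

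Foxa2-204 was listed at 0 estimated counts in all 9 control libraries without Cre and in both libraries of replicate 1. Control replicate 6 had 19.8 estimated counts in proximal and 6.18 in distal colon. Deficient libraries had 24.5 to 52.0 estimated counts in proximal and 2.79 to 31.7 in distal colon. These are low levels, 1.19 to 2.36 TPM and 0.314 to 1.62 TPM. In CPM the deficient means were 0.950 ± 0.134 in proximal and 0.551 ± 0.203 in distal colon (SD, n = 7 each). A floor of 3 counts came to 0.0802 and 0.0942 CPM in the shallowest control libraries without Cre. The lowest distal deficient library, replicate 7, was itself under 3 counts. As the zeros of the controls rest on the assignment of shared bases, no fold is read from them. Foxa2-204 passed the filter on low counts only through the deficient libraries. Over all controls, replicate 6 included, it did not pass in edgeR's test (adjusted p = 0.0661 and 0.0562) and passed in limma on log2(TPM + 0.1) (adjusted p = 0.000566 and 0.00237). Because of that filter, the limma result is given as a description only.

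**Figure D3:**
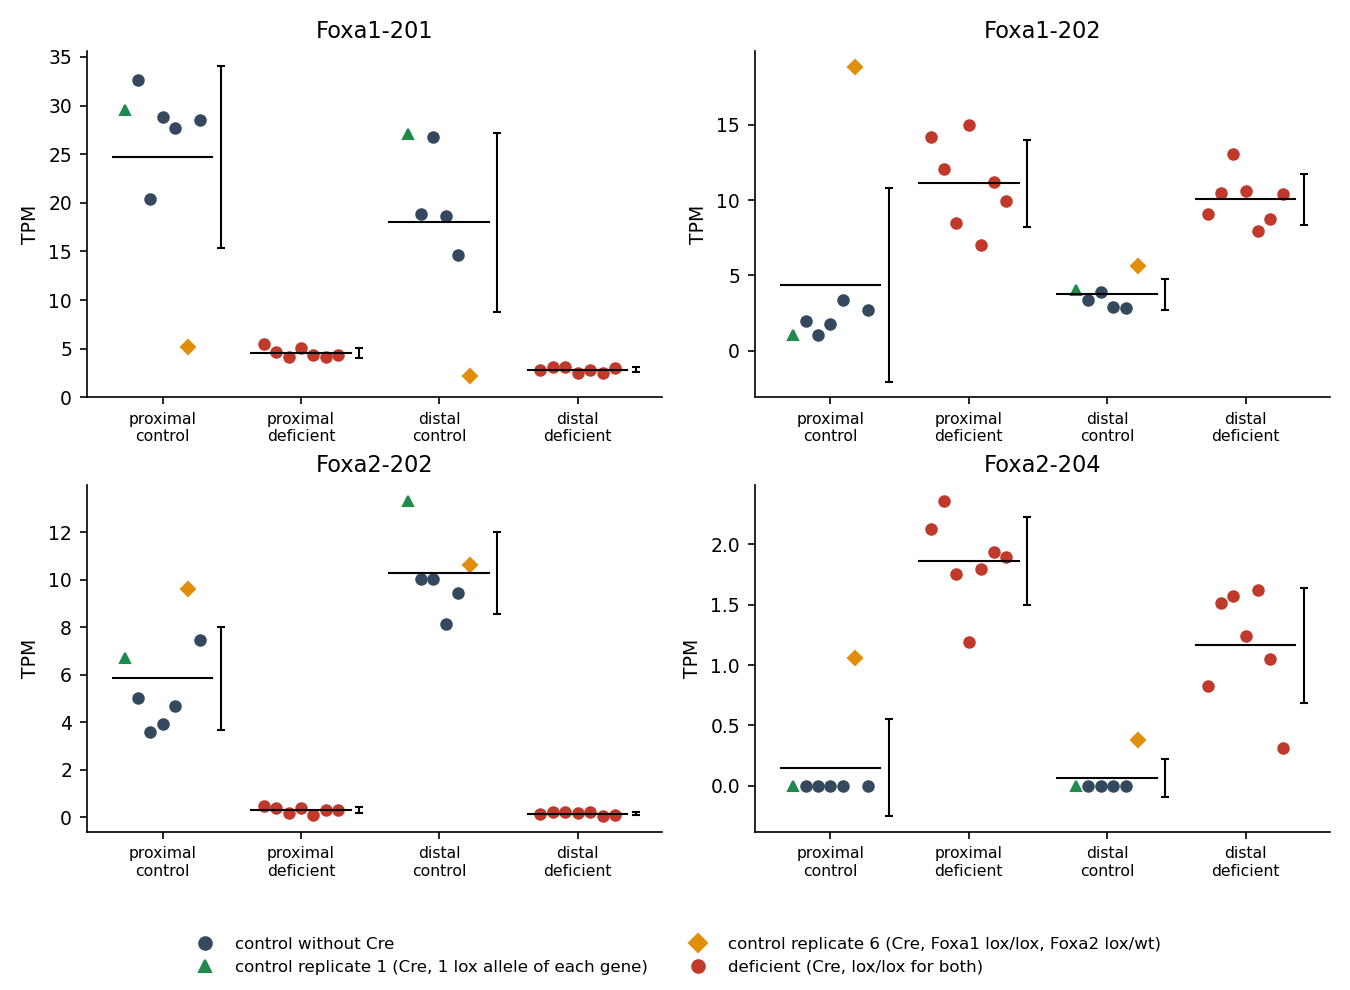
TPM of 2 Foxa1 and 2 Foxa2 transcripts in each library by group; points are libraries, horizontal lines are group means and bars beside them are 1 SD. Foxa1-201 and Foxa2-202 are lower in the deficient libraries, while Foxa2-204 is at 0 in every control except replicate 6 (1.06 TPM proximal, 0.383 TPM distal) and above 0 in every deficient library.

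The share of each transcript in its gene's TPM was compared by an exact two-sided permutation test over libraries, with p-values adjusted over 10 tests (5 transcripts in 2 segments, leaving out Foxa1-201, whose share is the complement of Foxa1-202). The smallest p that the design allows is 0.000583 in proximal and 0.00117 in distal colon. Foxa1-202 made up 16.8% ± 27.3 of Foxa1 TPM in proximal controls and 70.0% ± 4.36 in deficient libraries (SD, n = 7 each; exact permutation p = 0.00466, adjusted p = 0.00666). Most of that control SD came from replicate 6 at 78.4%, against 3.29% to 10.8% in the other 6 controls. In distal colon the share was 12.6% to 16.2% in controls other than replicate 6, 72.0% in replicate 6 and 73.6% to 80.6% in deficient libraries.

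As Foxa1-202 is short, a share of TPM weights its counts upward. By estimated counts Foxa1-202 held 13.5% ± 1.99 of Foxa1 in proximal and 16.4% ± 1.93 in distal deficient libraries, so most counts still went to Foxa1-201. The transcript-length offset used above is set by these shares, since it is built from the mean length of a gene's transcripts weighted by their estimates. Foxa2-204 made up 77.5% ± 8.55 of Foxa2 TPM in proximal and 82.4% ± 7.28 in distal deficient libraries, and 61.9% ± 9.80 and 65.8% ± 6.83 of Foxa2 counts (SD, n = 7 each). Among controls only replicate 6 had a share above 0 (6.93% and 2.60% of TPM). The groups did not overlap in either segment (exact permutation adjusted p = 0.00194 for each). Both values rest on the smallest p that the design allows. With the other controls at 0 they restate that split and are given as a description. Foxa2-202 went from 78.7% ± 9.76 to 12.9% ± 5.73 in proximal and from 76.1% ± 8.95 to 12.3% ± 4.76 in distal colon (exact permutation adjusted p = 0.00194 for each, n = 7 and 6 controls). These falls also rest on the smallest p. As shares of a gene are parts of a whole, they are largely the counterpart of the Foxa2-204 shares and not a separate result. The share of Foxa2-203 did not pass in either segment (exact permutation adjusted p = 0.118 and 0.0830).

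The labels of the Cre-carrying controls allow the levels to be set against the number of loxP alleles, with 1 mouse for each intermediate genotype and therefore no test. With 1 of 2 Foxa1 alleles loxP-flanked, replicate 1 had Foxa1 at 114% of the mean of controls without Cre in proximal and 156% in distal colon. The controls without Cre themselves ran from 84.0% to 110.2% and from 83.0% to 124%. The mouse with 1 targetable Foxa1 allele thus had no lower Foxa1 RNA than the mice without Cre. With both Foxa1 alleles loxP-flanked, replicate 6 had 22.8% and 14.8%, and the deficient libraries had 16.8% to 23.9% and 14.4% to 20.4%.

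For Foxa2, both Cre-carrying controls had 1 loxP-flanked allele. Replicate 1 had 134% and 166% of the mean without Cre, and replicate 6 had 205% and 131%, in proximal and distal colon. Controls without Cre ran from 79.8% to 137% and from 85.8% to 109%. The proximal value of replicate 1 was within that range, and the other 3 values lay above it. Replicate 6 was 18 months old, and the 2 other mice of that age, both without Cre, had proximal Foxa2 at 7.85 and 11.3 CPM against 16.9 CPM. Its Vil1, the gene whose promoter drives the Cre, was at 1171 CPM in proximal colon. The other proximal controls had 660 to 860 CPM and the deficient libraries 756 to 1210 CPM. In distal colon its Vil1 was at 1223 CPM, against 841 to 997 CPM in the other controls and 649 to 1171 CPM in deficient libraries. The part of Vil1 level, of epithelial content or of age in its Foxa2 level was not tested. With both alleles loxP-flanked, Foxa2 was at 16.3% to 23.3% in proximal and 1.81% to 7.53% in distal deficient libraries.

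Foxa3 was at 92.0% and 96.2% in replicate 1 and at 85.4% and 106% in replicate 6. Controls without Cre ran from 91.0% to 118% and from 85.7% to 118%, and deficient libraries from 50.7% to 90.6% and from 72.6% to 99.1%. Replicate 6, with low Foxa1 RNA, thus had a Foxa3 level just below the proximal controls without Cre and inside the range of the distal ones.

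The summed TPM of the 3 genes counts all their transcripts, the non-coding Foxa1-202 included, and so is not a dose of FoxA protein. It was 64.7 ± 8.33 TPM in proximal control and 37.8 ± 4.03 TPM in proximal deficient libraries (SD, n = 7 each; log2 difference -0.77, exact two-sided permutation p = 0.000583, adjusted p = 0.00117 over 2 segments). In distal colon it was 64.4 ± 11.0 TPM (n = 6) and 40.3 ± 5.19 TPM (n = 7; log2 difference -0.67, exact permutation p = 0.00117, adjusted p = 0.00117). No deficient library reached the lowest control in either segment. Both p-values are the smallest that the design allows. As Foxa1 and Foxa2 were targeted, a lower sum was built into the comparison, and the size of the difference is given as a description. Counting only transcripts with the whole annotated coding sequence (Foxa1-201, Foxa2-201, Foxa2-202 and Foxa3-201), a choice made after seeing the data, the difference was -1.25 in proximal and -1.01 in distal colon.

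On that narrower count Foxa3 made up 40.9% to 62.3% of the family in proximal and 37.9% to 66.4% in distal control libraries, with the highest value of each in replicate 6. In deficient libraries it made up 73.8% to 83.7% and 87.2% to 91.9%. These shares follow from the falls of the other members and are given as a description.

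**Figure D4:**
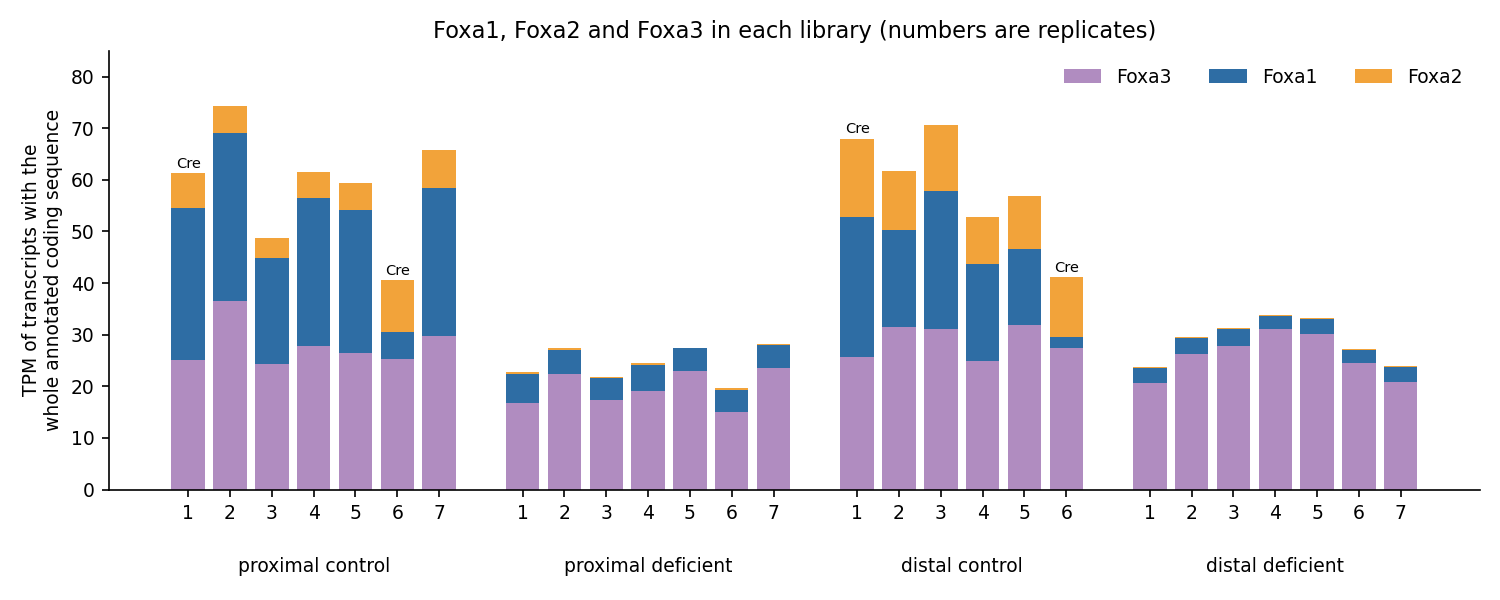
Stacked bars of TPM of Foxa3, Foxa1 and Foxa2 in each library, counting transcripts with the whole annotated coding sequence; each bar is 1 library, and "Cre" marks the control mice that carried it. Proximal deficient bars reach 19.6 to 28.3 TPM and distal deficient bars 23.7 to 33.8 TPM, most of it Foxa3, and control replicate 6 reaches 40.6 and 41.1 TPM.

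The Cre-carrying controls were then placed along the genotype response of all genes. Each gene called between deficient mice and controls without Cre was given a position in each library, with 0 at the mean of controls without Cre and 1 at the deficient mean. A control without Cre was placed with itself left out of the fit and of the mean. Replicate 1, with its control-like Foxa1 and Foxa2 RNA, had a median position of 0.06 over 1933 genes in proximal and 0.10 over 892 genes in distal colon. Replicate 6, with Foxa1 RNA low and Foxa2 RNA high, had medians of 0.40 and 0.37. Controls without Cre had medians of -0.01 to 0.23 in proximal and up to 0.13 in distal colon, so replicate 6 lay beyond all of them.

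The upper quartile of the positions of replicate 6 was 0.78 in proximal and 0.79 in distal colon, with a lower quartile close to 0. Other single libraries were also spread, with quartiles of -0.32 and 0.50 in distal replicate 1 and -0.02 and 0.52 in proximal replicate 3. The spread is therefore not read as a difference between genes. Over genes called higher and lower, replicate 1 had medians of 0.04 and 0.06 in proximal and 0.27 and -0.01 in distal colon. Those of replicate 6 were 0.51 and 0.31 in proximal and 0.51 and 0.26 in distal colon. In replicate 6 Foxa1 itself stood at 0.90 and 1.08 and Foxa2 at -0.44 and -0.09. Pdx1, a homeobox gene of foregut and pancreas, stood at -0.21 and 0.31 in replicate 1 and at 0.50 and 0.60 in replicate 6. Gcg, which encodes proglucagon, stood at 0.03 in proximal and 0.48 in distal colon, where replicate 1 was at 0.44 and controls without Cre ran from -0.36 to 0.29. Muc2, the main gel-forming mucin, stood at -0.12 in proximal colon. Muc2 was at 1.43 in distal colon, but replicate 1 was at 2.02 there. Insl5, a hormone gene of distal enteroendocrine cells, stood at 0.00 in distal colon.

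**Figure D5:**
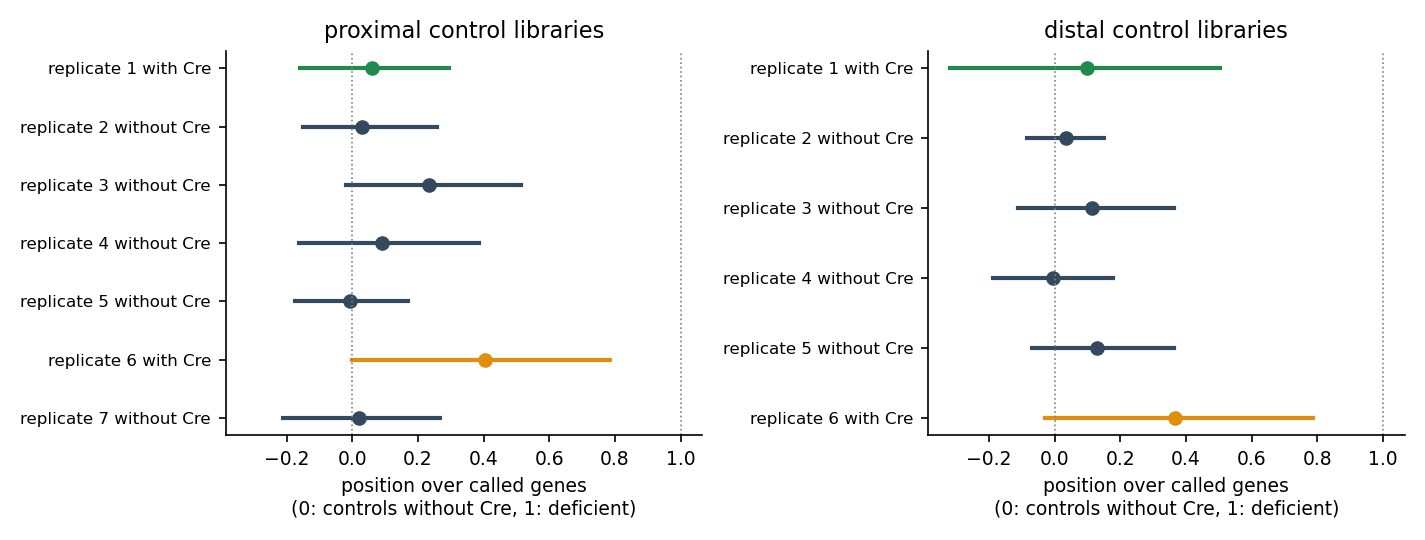
Position of each control library between controls without Cre (0, dotted) and deficient mice (1, dotted) over the genes called between those groups; points are medians and bars span the quartiles. Replicate 6 has the highest median in both segments (0.40 proximal, 0.37 distal).

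Other forkhead genes were examined beside the family, as a list of 41, of which 25 passed the filter in proximal and 22 in distal colon. This list and the endoderm and secretory lists below were chosen with earlier results of these data known. In proximal colon, where 11.7% of all genes tested were called, 2 rose and 2 fell. The median log2 fold change was -0.02 (0.01 over all genes tested). Foxp1 fell in both segments (-0.48, adjusted p = 0.00299 and -0.77, adjusted p = 0.00141 in edgeR's test). It was the only one called in distal colon, where 6.07% of all genes tested were called. Foxp4 (-0.63) fell, and Foxo3 (0.46) and Foxo6 (0.83) rose, in proximal colon.

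Of 20 transcription factors of gut endoderm that work in the same cells, all were tested. In proximal colon, where 11.7% of all genes tested were called, 2 rose and 2 fell. Pdx1 rose most, by 2.63 (SE 0.33, adjusted p = 5.01e-05 in edgeR's test), with the small-intestinal GATA factor Gata4 at 1.10. Sox9, a factor of crypt cells, fell by 0.46, and the intestinal homeobox gene Cdx1 by 0.32. In distal colon Pdx1 rose by 2.06, the homeobox gene Isx fell by 1.52, and the other 18 did not pass (6.07% of all genes tested were called). The medians over the list were -0.08 and -0.09.

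A list of 14 genes of goblet and enteroendocrine cells tied to FoxA factors in the field had 13 tested in each segment. With all controls, 8 fell and 2 rose in proximal colon (median -0.93), where 11.7% of all genes tested were called. In distal colon 2 fell and 2 rose (median -0.34), where 6.07% of all genes tested were called. Gcg fell by 2.98 and Muc2 by 1.49 in proximal colon, and the neuroendocrine factors Neurod1 (1.56) and Pax6 (1.34) rose. In distal colon Insl5 fell by 6.98 and Gcg by 1.46, and Pax6 (1.75) and Neurod1 (1.63) rose again. The distal count depended on the controls. Against controls without Cre, Muc2 (-1.09, adjusted p = 0.00304) and Spdef (-0.49, adjusted p = 0.0237 in edgeR's test) were also called lower there. The genotype effect differed between segments for Gcg, Pyy and Nkx2-2 of this list (1.55, 1.49 and 1.97 on the log2 scale), against 1.01% of all genes tested. Each had the higher value in distal colon, whereas Foxa2 had the lower value there.

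Genes that start within 200 kb of a member were looked at for changes beside the targeted loci. Near Foxa1, 2 of 8 annotated genes passed the filter, near Foxa2 0 of 5 and near Foxa3 16 of 26. In proximal colon 0 of these were called, against 11.7% of all genes tested. The share over all genes tested was 6.07% in distal colon. In distal colon Gm2568, a processed pseudogene 26292 bases from the Foxa1 start, rose (1.40, SE 0.32, adjusted p = 0.0152 in edgeR's test), and Mill2, 183572 bases from the Foxa3 start, fell (-0.68, SE 0.18, adjusted p = 0.0332). Ttc6, which starts 17197 bases upstream of Foxa1 on the other strand, did not pass in either (-0.10 and 0.41). Sympk, whose start is 839 bases from that of Foxa3, did not pass either (-0.19 and 0.09).

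The levels of the members were last compared with those of every other gene over the 27 libraries. These libraries share mice between segments and fall into genotype groups, so a high Pearson r of log2 CPM may be set by the group means, and r is given as a description over 14276 genes of at least 1 mean CPM. Foxa1 and Foxa2 had r = 0.76 with each other, Foxa2 and Foxa3 0.49, and Foxa1 and Foxa3 0.36. The genes most like Foxa1 were the glutathione transferase gene Gstm1 (0.93), Asph (0.92), Fam57a (0.91), the potassium channel subunit gene Kcne3 (0.91) and Prcp (0.91). As these genes were picked by r over libraries split by genotype, a gap between their groups follows from the choice. Gstm1 had 57.3 to 124 CPM in proximal control and 30.2 to 42.8 CPM in proximal deficient libraries, and 52.9 to 139 and 24.6 to 35.0 CPM in the distal groups.

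Most like Foxa2 were the lipid transfer gene Osbpl5 (0.92), Tph1 (0.90), Pkhd1 (0.89), Kcne3 (0.89) and Khdrbs3 (0.89). Tph1, which makes the first enzyme of serotonin synthesis in enterochromaffin cells, had 11.2 to 38.0 CPM in proximal control and 0.273 to 1.30 CPM in proximal deficient libraries. In distal colon it had 8.37 to 20.5 and 0.130 to 0.656 CPM. Most like Foxa3 were Bcas1 (0.91), Tmed3 (0.90), Sycn (0.90), Ramp1 (0.89) and Rep15 (0.89). Bcas1 had 51.4 to 74.6 CPM in proximal control and 13.9 to 35.3 CPM in proximal deficient libraries, and 133 to 168 and 38.0 to 113 CPM in the distal groups. No gene was among the 5 of Foxa3 and also among those of another member, whereas Kcne3 was shared by Foxa1 and Foxa2.

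The authors' deposited log2 CPM matrices also hold the 3 genes. For Foxa1 and Foxa3 those values differed from the log2 of the CPM given here by up to 0.22 and 0.12 in control and by up to 0.22 and 0.12 in deficient libraries. For Foxa2 they differed by up to 0.47 in control and by a median of 0.74 in deficient libraries, where the deposited values were higher. The Foxa2 log2 fold change from the deposited values was accordingly -1.57 in proximal and -3.44 in distal colon (limma), with both calls kept.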

How the data were processed

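The submitters' processing notes name bcl2fastq 2.20.0.422, then kallisto 0.46.2, cutadapt 2.5, the GRCm38 (mm10) build, and edgeR without a version. The authors deposited, for each of 27 libraries, expected counts per transcript with TPM (abundance corrected for length) and effective lengths. They also deposited a log2 CPM matrix per segment. The NEBNext Ultra poly(A) kit is named in the labels' protocols. Read layout, strand setting and the scaling of that matrix: not given in the sources used here.

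Transcripts were joined to GENCODE M21 genes by identifier without version: 116728 of 119414 matched, and the 2686 others, with 0.902% to 1.27% of counts, were left out. Expected counts were summed over 35975 genes and rounded. Genotypes were compared within a segment with the edgeR 4.0.16 quasi-likelihood test in R 4.3.3, after filterByExpr and TMM, over all genes or all transcripts. Segments and the difference between segments were fitted with mouse as a block. Shares and summed TPM were tested with exact permutation tests in scipy 1.17.1. DESeq2 1.42.0 and limma 3.58.1 gave alternatives, limma for transcripts on log2(TPM + 0.1). Each replicate is a separate mouse by its label. Depth limits low estimates: 3 counts were taken as the floor, which covers counting error only. The gene fits were tested on simulated data with known changes.

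Named were the 3 genes and their transcripts, tested genes starting within 200 kb, the 5 genes of highest r for each member, and up to 4 called members per list by smallest p. The members and the lists were chosen with earlier results of these data known. Motifs were matched in RefSeq promoter windows of GRCm38.p6; the 3 symbols all matched. Protein sequences were not used here. Equal replicate numbers in the 2 genotypes name different mice, and the pairing check is given with the processing alternatives.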

Additional observations from a re-analysis of the deposited data

Results flagged for a closer look

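A library was marked when the gap between it and its nearest neighbour took up an unusually large part of its group's range (Dixon's criterion at 95%, which chance meets in about 1 of 20 groups); 36 groups were examined. In proximal controls, replicate 6 was marked for Foxa1 at 15.0 CPM, for Foxa1-202 at 18.9 TPM and for Foxa2-204 at 1.06 TPM. In distal controls, replicate 6 was marked for Foxa2-204 at 0.383 TPM. All other controls were at 0 for Foxa2-204, so any single library above 0 would be marked, and the stated rate does not hold there. Replicate 6 is the control mouse that carried Villin1-Cre with Foxa1 lox/lox and Foxa2 lox/wt. The proximal control of replicate 2, without Cre, was marked for Foxa3 at 49.4 CPM, and the distal deficient library of replicate 2 for Foxa2-203 at 0.485 TPM, which rested on 6.68 estimated counts.

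The genotype effect on Foxa2 differed between the segments by -1.93 on the log2 scale (distal minus proximal, adjusted p = 0.00460 in edgeR's test over 13 mice).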

How the results depend on the processing

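Genotype comparisons of genes were also fitted with DESeq2, with its size factors, without a filter on low counts, with a transcript-length offset, on the authors' log2 CPM, with controls without Cre, with mice of 9 to 13 months, with mice labelled male, with epithelial scaling and with each library left out, and the segment comparisons with those that apply and each mouse left out. Transcripts, shares, summed TPM and positions had the alternatives named below. Of 334 values in all, 311 kept their direction and their side of the threshold. Positions have no threshold and were counted as kept when they moved by less than the SD of the medians of controls without Cre. Fits with a library or mouse left out made up 159 of the values, of which 154 were kept. Of the 175 other values 157 were kept. The genotype calls of Foxa1, Foxa2 and Foxa3 in proximal colon, of Foxa2 in distal colon and of the Foxa2 difference between segments held in each of these alternatives, and Foxa3 in distal colon was called in 0 of them (adjusted p from 0.0905 to 0.775). Outside this set, Foxa3 in proximal colon was not called against controls without Cre when replicate 2 was left out too. The causes of the changes listed next were not tested.

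With the transcript-length offset, Foxa1 lost its calls in the distal genotype comparison (-0.83) and between segments of deficient mice (-0.091), and its difference between segments turned to 0.17. With epithelial scaling, the segment values in control mice became -0.83 for Foxa1 (now called) and -0.20 for Foxa3 (reversed), and in deficient mice -0.93 for Foxa2 (now called) and 0.35 for Foxa3 (call lost). The Foxa2 segment value in deficient mice was also called with DESeq2 (-0.66) and with no replicate block (-0.62). Foxa3 between segments of control mice was 0.26 without Cre-carrying mice. With 1 mouse left out, segment values ran from -0.50 to -0.35 (Foxa1, deficient; call lost without replicate 4), from -0.83 to -0.51 (Foxa2, deficient; called without replicate 3) and from 0.28 to 0.39 (Foxa3, control; call lost without replicate 1, 5 or 6).

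Over all controls, Foxa2-204 was called with limma (3.77 in proximal and 3.15 in distal colon), though it passed the filter on low counts only through the deficient libraries. Against controls without Cre its fitted values were 8.38 and 7.33; these controls were all at 0, so the values are no bound and no call is read from them. Foxa1-202 was called at 2.38 in proximal colon against controls without Cre, and lost its distal call without a filter (1.30). By counts, the proximal share of Foxa2-203 changed by 0.448 points in place of -6.50. Over genes of at least 2-fold, distal control replicate 1 had a position of 0.17.

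Called genes rose from 973 to 1504 (distal) and from 178 to 529 (difference between segments) with DESeq2, and from 7231 to 11297 (segments of control mice) with epithelial scaling. Without control replicate 2 or deficient replicate 3 the difference between segments had 102 and 110 called genes. Epithelial scaling moved the median of all genes by over 0.1 in each comparison it was run on (to -0.17 and 0.17 for the genotypes, -0.59 and -0.28 for the segments) and the split of higher and lower calls from 927 and 1035 to 403 and 1090 (proximal), from 433 and 540 to 492 and 237 (distal), from 3548 and 3683 to 1227 and 10070 (control segments) and from 3752 and 3693 to 1722 and 5087 (deficient segments).

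Equal replicate numbers did not pair the mice: over 7 proximal and 6 distal pairs, deviations from the group means had r from -0.16 to 0.27, and 1 pair in each segment was most alike within its own number. With the replicate block, Foxa1 was at -2.13 and -2.30, Foxa2 at -2.61 and -4.36 and Foxa3 at -0.53 and -0.24 in proximal and distal colon, which changed no call. Estimates of a few counts, such as distal Foxa2 and its transcripts in deficient mice, are limited by depth.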
